A study of Mus musculus with 6 samples.

Results

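The 7 genes described here belong to the actin system and were measured in mouse macrophages grown on coated zinc alloys: Tmsb10 and Tmsb4x, which encode the thymosins beta-10 and beta-4, Pfn1 (profilin-1), Cfl1 (cofilin-1), Actb and Actg1 (the cytoplasmic beta and gamma actins) and Ahnak, a giant scaffold. These 7 of the 54532 genes in the deposited tables were taken by gene name. They were selected on their measured levels, because Tmsb10 was far lower and Ahnak far higher in a single library, CaP Zn0.8Mn replicate 1, than in the other 5. Values that set this library apart are therefore given as a description with no test, and they support nothing.

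RAW 264.7 cells, an established mouse macrophage line, were seeded on zinc-based metals that all carried a calcium phosphate (CaP) coating, and polyadenylated RNA was sequenced after 3 days. The 3 groups were CaP Zn0.8Mn0.1Li, a zinc alloy with manganese and lithium, CaP Zn0.8Mn, a zinc alloy with manganese, and CaP Zn, the coated zinc without either addition, with 2 libraries each. All 3 groups share the zinc and the coating, so there was no culture off zinc, and the cells were a single line with no other cell type on the metal. Whether the 2 libraries on a metal were separate cultures is not in the labels, so p-values speak of library-to-library spread, possibly a technical one.

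In a cell, actin cycles between single subunits and filaments. Thymosins bind subunits and hold them in reserve, profilin reloads subunits with ATP and hands them to growing filament ends, and cofilin severs old filaments and returns their subunits. In macrophages this cycle drives spreading on a surface, crawling and phagocytosis. Ahnak is known as a very large protein that sits under the plasma membrane with S100a10 and annexin A2.

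The coding sequences of these genes run from tiny to giant, and their sequences are shown first because they set how reads can be told apart between related genes. All were read from GENCODE M21 transcripts on build GRCm38. Tmsb10 (chr6:72957347-72958748, minus strand) and Tmsb4x (chrX:167207093-167209315, minus strand) each encode 44 amino acids in 135 coding bases, stop codon included. Their whole coding sequences are given 5′ to 3′, with capitals at the positions where the 2 genes differ.
Tmsb10: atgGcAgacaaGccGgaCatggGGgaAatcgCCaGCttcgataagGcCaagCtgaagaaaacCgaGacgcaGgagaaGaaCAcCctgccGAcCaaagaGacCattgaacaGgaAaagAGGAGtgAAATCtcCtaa
Tmsb4x: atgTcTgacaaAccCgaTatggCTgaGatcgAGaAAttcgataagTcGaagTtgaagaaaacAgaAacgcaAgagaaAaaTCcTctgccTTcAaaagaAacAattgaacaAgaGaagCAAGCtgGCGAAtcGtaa
The 2 thymosin sequences share 95 of 135 bases (70.4%), and their longest identical run is 10 bases, so that reads of the 2 genes can be told apart within the coding sequence.

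The actins are much closer. Actb (chr5:142903115-142906754, minus strand) and Actg1 (chr11:120345690-120348542, minus strand) each encode 375 amino acids, and 1000 of 1128 coding bases are the same (88.7%), with a longest identical run of 62 bases. Their first 90 coding bases are shown with capitals at the differing positions.
Actb: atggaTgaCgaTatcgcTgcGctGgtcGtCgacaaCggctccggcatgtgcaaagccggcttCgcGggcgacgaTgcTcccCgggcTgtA
Actg1: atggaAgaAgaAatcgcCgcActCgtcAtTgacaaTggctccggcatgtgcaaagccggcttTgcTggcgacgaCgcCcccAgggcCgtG
Runs of this length mean that some short reads could come from either actin.

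Pfn1 (chr11:70651850-70654644, minus strand) encodes 140 amino acids and Cfl1 (chr19:5490455-5495201, plus strand) 166. Ahnak (chr19:8989284-9076919, plus strand) encodes 5656 amino acids over 5 exons, of which a single exon of 17498 bases makes up 96.7% of the 18100-base transcript. Its coding sequence repeats itself: shifted by 384 bases, or 128 codons, it matched itself at 46.4% of positions, against a median of 24.8% over 1441 shifts. The stretch below stands at coding bases 9880 to 9969 and again, base for base, at 10264 to 10353, and it occurs 3 times in all.
Ahnak: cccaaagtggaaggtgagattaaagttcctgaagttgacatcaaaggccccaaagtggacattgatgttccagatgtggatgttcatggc
The table holds 0 other genes that share a 50-base run with Ahnak, Tmsb4x or Pfn1, so the repeats recur within Ahnak and not in another tabulated gene.

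Before the results, the libraries themselves differ. Their totals ran from 14944070 to 17709290 counts. CaP Zn0.8Mn replicate 1 had 7.88% of its counts on mitochondrial genes, against 1.82 to 2.15% in the other 5 libraries. Of 7300 tested genes with a mean of at least 20 CPM (counts scaled to a common library size, with TMM factors), 683 were over 2-fold higher in this library than the mean of the other 5 (9.36%) and 1096 over 2-fold lower (15%). In each of the other 5 libraries, set against the remaining 4 without it, 0 to 5 genes lay over 2-fold away in each direction. The 12 macrophage markers were all present in every library, with sums of 11230 CPM in CaP Zn0.8Mn replicate 1 and 11790 to 17630 CPM in the others. The 5 epithelial markers stood at 0 in every library, and T and B cell markers summed to at most 0.463 CPM. The 7 fibroblast markers summed to 1.19 CPM in CaP Zn0.8Mn replicate 1, against 0.0604 to 0.269 CPM in the rest, with Col1a2, Col3a1, Dcn, Lum and Pdgfra at 0 in all 6 and Col1a1 at 0 in 3. The endothelial list summed to 14.3 CPM in that same library, against 2.84 to 3.52 CPM in the rest, with its defining genes Cdh5 and Tek at 0 in all 6. The osteoblast list summed to 7.47 CPM in that library, against 13.6 to 17.4 CPM, and the muscle list to 2.45 CPM, against 0.704 to 1.59 CPM. The part of any of these differences in the results was not tested.

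Among the subunit-holding thymosins, Tmsb10 had 262 and 259.9 CPM in the 2 CaP Zn0.8Mn0.1Li libraries, 6.41 and 233 CPM in CaP Zn0.8Mn replicates 1 and 2, and 163 and 221 CPM in CaP Zn. A single library was low, and the other 5 lay within 1.61-fold of each other. The low value rests on 97 counts, for which an exact Poisson interval at 95% runs from 5.20 to 7.82 CPM and covers counting error only, against 3031 to 4347 counts in the other 5. On the scale of log2 CPM, CaP Zn0.8Mn replicate 1 differed from the mean of the other 5 libraries by -5.03, a 32.6-fold lower level. Of the 7300 genes, 1 was further down. Its rank by FPKM, the deposited counts per length and library size, was 7166th of 13156 tested genes there, against 264th to 367th in the other 5. In bulk RNA, fewer cells that carry a transcript and less of it per cell cannot be told apart.

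Tmsb4x, the other thymosin and the gene of highest FPKM among the 7 in 4 of the 6 libraries, did not share that depth. It had 1118 and 1107 CPM on CaP Zn0.8Mn0.1Li, 512 and 1208 CPM on CaP Zn0.8Mn, and 834 and 1039.5 CPM on CaP Zn. CaP Zn0.8Mn replicate 1 was again the lowest and CaP Zn0.8Mn replicate 2 the highest of all 6. The log2 difference of the low library from the other 5 was -1.04. Per length, Tmsb4x stood 3.97- and 3.96-fold above Tmsb10 on CaP Zn0.8Mn0.1Li, 74.3- and 4.82-fold above it on CaP Zn0.8Mn, and 4.76- and 4.37-fold above it on CaP Zn.

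Profilin-1, which feeds subunits to filament ends, had 749 and 744 CPM on CaP Zn0.8Mn0.1Li, 266 and 757 CPM on CaP Zn0.8Mn, and 640.2 and 664 CPM on CaP Zn. Cofilin-1, the severing protein, had 1563 and 1577 CPM on CaP Zn0.8Mn0.1Li, 822 and 1645 CPM on CaP Zn0.8Mn, and 1440.1 and 1525 CPM on CaP Zn. For both genes CaP Zn0.8Mn replicate 1 lay below the other 5, by log2 differences of -1.41 for Pfn1 and -0.91 for Cfl1, while CaP Zn0.8Mn replicate 2 was the highest of the 6. Cfl1 varied by a CV of 4.85% over the other 5 libraries and Pfn1 by 7.67%. Both thymosins varied more, with a CV of 17.7% for Tmsb10 and 13.2% for Tmsb4x over the same 5.

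The actins themselves went the other way. Actb had 976 and 1051.5 CPM on CaP Zn0.8Mn0.1Li, 1546 and 1099 CPM on CaP Zn0.8Mn, and 973 and 912 CPM on CaP Zn. Actg1 had 735 and 692 CPM on CaP Zn0.8Mn0.1Li, 844 and 746 CPM on CaP Zn0.8Mn, and 582 and 689 CPM on CaP Zn. CaP Zn0.8Mn replicate 1 was the highest library for each, by log2 differences of 0.63 and 0.30 from the other 5, and CaP Zn0.8Mn replicate 2 came second. The Actb to Actg1 ratio by FPKM was 1.32 and 1.51 in the CaP Zn0.8Mn0.1Li libraries, 1.82 and 1.46 in those of CaP Zn0.8Mn, and 1.66 and 1.31 in those of CaP Zn. Summed by FPKM, the 4 binding proteins stood at 3.11 and 3.05 times the 2 actins on CaP Zn0.8Mn0.1Li, at 0.937 and 3.01 times on CaP Zn0.8Mn, and at 2.77 and 3.10 times on CaP Zn.

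Ahnak had 377 and 379.9 CPM on CaP Zn0.8Mn0.1Li, 4514.5 and 394 CPM on CaP Zn0.8Mn, and 402 and 379 CPM on CaP Zn. Apart from a single library these were nearly level, with a CV of 2.87%, the smallest of the 7 genes, and CaP Zn0.8Mn replicate 1 stood 11.7-fold above them, a log2 difference of 3.55. It was the 12th highest difference of the 7300 genes. Ahnak took 68317 counts, or 0.457% of that library, against 5926 to 7473 counts and 0.0367 to 0.0422% of the others. All 7 genes together made up 0.862% of the counts in that library, against 0.529 to 0.591% in the others.

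**Figure D1:**
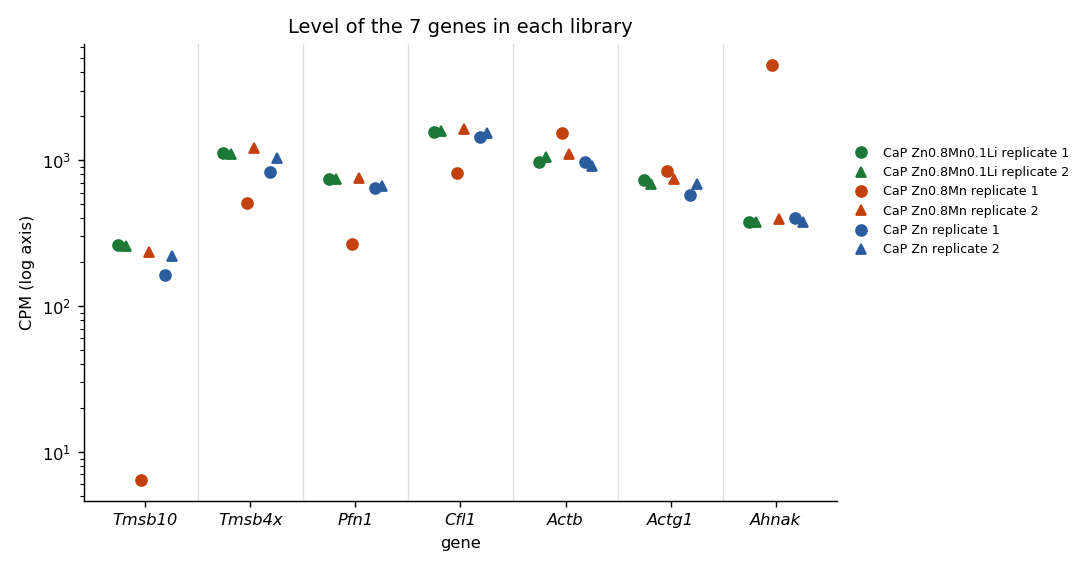
Level in CPM on a log axis for the 7 genes, in the order of the text, with 1 point per library, coloured by alloy and shaped by replicate. CaP Zn0.8Mn replicate 1 lies apart for Tmsb10 at 6.41 CPM and for Ahnak at 4514.5 CPM, while the other 5 libraries stay within 1.61-fold of each other for Tmsb10.

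**Figure D2:**
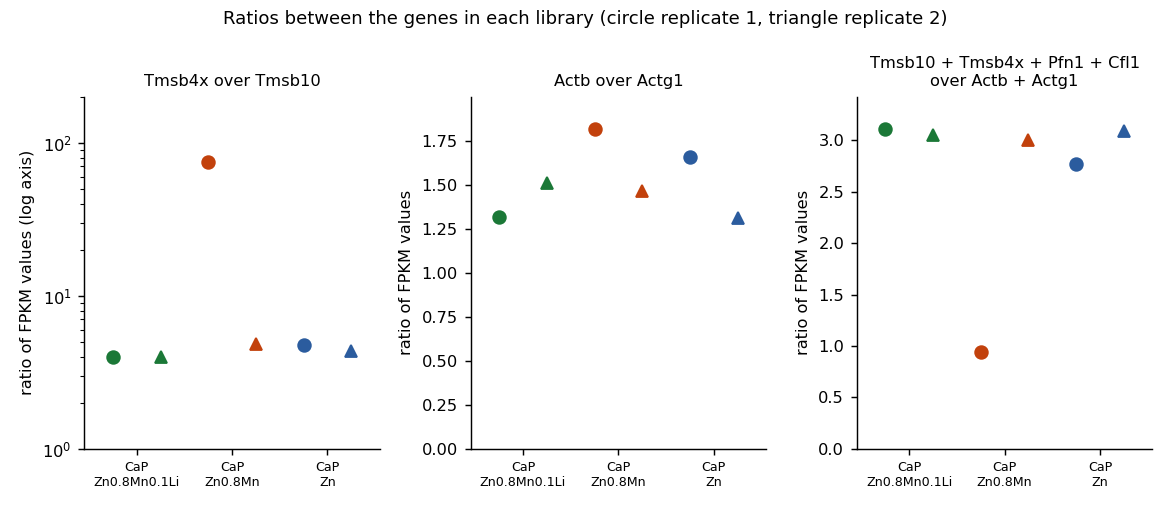
Ratios of FPKM values within each library: Tmsb4x over Tmsb10 on a log axis, Actb over Actg1, and the 4 binding proteins summed over the 2 actins summed. In CaP Zn0.8Mn replicate 1 the thymosin ratio is 74.3 and the binder to actin ratio 0.937, against at most 4.82 and at least 2.77 in the other 5 libraries.

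Ordered by FPKM, 4 libraries ran Tmsb4x, Cfl1, Actb, Pfn1, Actg1, Tmsb10, Ahnak from high to low. In CaP Zn replicate 1 the first 2 changed places, with 605 FPKM for Cfl1 and 601 FPKM for Tmsb4x, so these neighbours do not differ beyond the spread between libraries. In CaP Zn0.8Mn replicate 1 the order was Actb, Tmsb4x, Cfl1, Actg1, Ahnak, Pfn1, Tmsb10. Ahnak had 237 FPKM there against 20.2 to 21.4 FPKM in the other 5, and its FPKM rank among tested genes was 149th, against 2432nd to 2623rd. The FPKM scale divides by all annotated exon bases of a gene, which is 2405 for Pfn1, although its main transcript has 861, so levels between genes are only as good as that length.

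The comparison of CaP Zn0.8Mn0.1Li over CaP Zn asks how these genes differ between the metal with both additions and plain zinc, and it does not involve the library that chose them, except through the shared spread. Of the 7 genes, 6 had both CaP Zn0.8Mn0.1Li libraries above both CaP Zn libraries, while across all 13156 tested genes 16.7% did so. The exception was Ahnak, whose groups overlapped. None of the differences passed the test. With all 6 libraries in edgeR's quasi-likelihood fit, the log2 fold changes were 0.44 for Tmsb10 (SE 1.31), 0.25 for Tmsb4x (SE 0.43), 0.20 for Pfn1 (SE 0.48), 0.17 for Actg1 (SE 0.21), 0.11 for Actb (SE 0.26), 0.08 for Cfl1 (SE 0.37) and -0.05 for Ahnak (SE 0.98). The Benjamini-Hochberg adjusted p from edgeR was 1.00 for each. Over all genes, 0 of 13156 were called (0%), 29 (0.22%) had an unadjusted p under 0.05, and DESeq2 and limma-voom also called 0.

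These errors include the spread of CaP Zn0.8Mn replicate 1, because the 3 groups share a single estimate. Without that library the fold changes moved by at most 0.01 on the log2 scale and the SE fell to 0.12 for Tmsb10, 0.13 for Tmsb4x and 0.09 for Ahnak. Tmsb10 then had an unadjusted p of 0.00262 and an adjusted p of 0.596 in edgeR's test, with both CaP Zn0.8Mn0.1Li libraries higher. The other 6 genes had adjusted p-values of 0.967 to 0.988, and 0 of 13156 genes were called (0%), although 660 (5.02%) had an unadjusted p under 0.05. In that fit the lone CaP Zn0.8Mn library is assumed to vary like the other groups.

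The sizes turned on which library of either group was kept. CaP Zn replicate 1 was the lowest of the 5 libraries without CaP Zn0.8Mn replicate 1 for 5 of the 7 genes, against 24.9% of all tested genes. Without it the log2 fold change of CaP Zn0.8Mn0.1Li over CaP Zn was 0.24 for Tmsb10, 0.10 for Tmsb4x, 0.17 for Pfn1, 0.15 for Actb, 0.05 for Actg1, 0.04 for Cfl1 and -0.0040 for Ahnak. Without CaP Zn replicate 2 in its place, it was 0.68 for Tmsb10, 0.42 for Tmsb4x, 0.22 for Pfn1, 0.06 for Actb, 0.29 for Actg1, 0.12 for Cfl1 and -0.09 for Ahnak. Of the CaP Zn0.8Mn0.1Li libraries, leaving out replicate 1 gave 0.15 for Actb and 0.11 for Actg1, and leaving out replicate 2 gave 0.05 for Actb and 0.21 for Actg1. Gene length moved with CaP Zn replicate 1. Among genes under 1 kb of exon the median log2 fold change of CaP Zn0.8Mn0.1Li over CaP Zn was 0.07, with 76.7% of 240 genes higher, and without CaP Zn replicate 1 it was -0.01, with 47.9% higher. Among genes of 1 to 2 kb, the length class of both thymosins, the median was 0.05 with that library and -0.0014 without it. The part of length in the thymosin values was not tested.

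**Figure D3:**
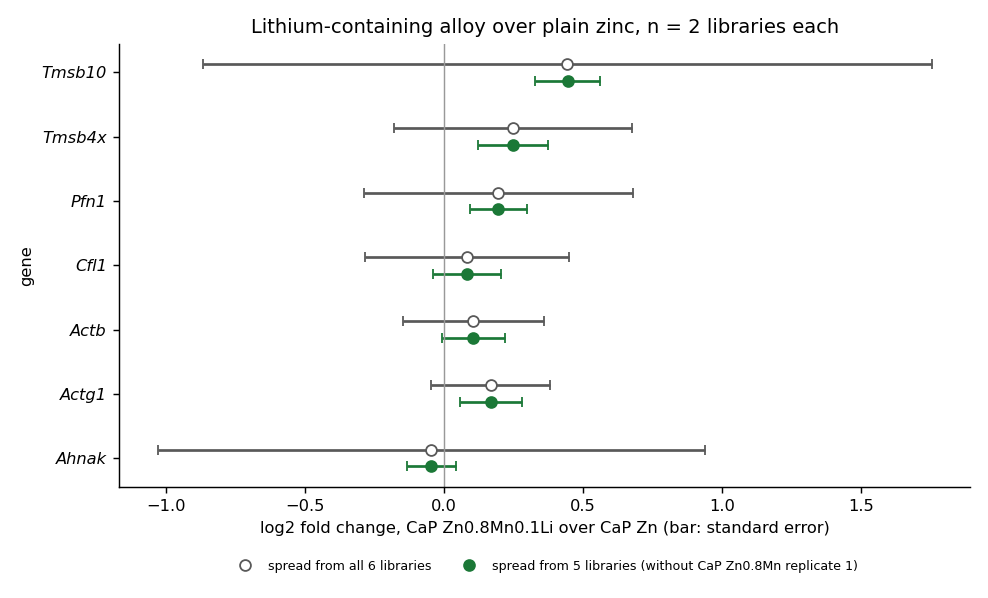
Log2 fold change of CaP Zn0.8Mn0.1Li over CaP Zn for each gene with its standard error, open circles from all 6 libraries and filled circles without CaP Zn0.8Mn replicate 1. The points hardly move, from 0.44 for Tmsb10 to -0.05 for Ahnak, while the bars shrink, for Tmsb10 to an SE of 0.12.

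For the 2 comparisons that involve CaP Zn0.8Mn, the values over all 6 libraries rest on the library that chose the genes and are listed as such. CaP Zn0.8Mn over CaP Zn gave log2 fold changes of -0.68 for Tmsb10, -0.12 for Tmsb4x, -0.35 for Pfn1, -0.27 for Cfl1, 0.49 for Actb, 0.32 for Actg1 and 2.65 for Ahnak. Where the libraries of a group differ this much the size depends on the method: over the same 6 libraries Tmsb10 was at -2.29 and Ahnak at 1.78 with limma-voom, which works on log values, and at -1.44 and 2.16 with a replicate block. Both CaP Zn0.8Mn libraries lay above both CaP Zn libraries for Actb and Actg1, as for 12.5% of all tested genes, and the groups overlapped for the other 5. CaP Zn0.8Mn0.1Li over CaP Zn0.8Mn gave 1.13 for Tmsb10, 0.37 for Tmsb4x, 0.55 for Pfn1, 0.35 for Cfl1, -0.38 for Actb, -0.16 for Actg1 and -2.70 for Ahnak, with Tmsb10 at 2.75 and Ahnak at -1.82 by limma-voom on log values. Tmsb10 was higher in both CaP Zn0.8Mn0.1Li libraries, as for 17.1% of all genes, and Actb, Actg1 and Ahnak were lower in both, as for 17.5%. In edgeR's fit over the 6 libraries 0 of 13156 genes were called in either comparison (0%), whereas without CaP Zn0.8Mn replicate 2 the calls took in 7 of the 7 genes against CaP Zn, beside 59.3% of all genes, and 6 of the 7 against CaP Zn0.8Mn0.1Li, beside 61.5%, from which nothing is read. The comparisons share libraries with each other, so these values are not independent of one another.

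With CaP Zn0.8Mn replicate 2 as the only CaP Zn0.8Mn library, the values were closer to the other groups. All 7 genes were higher on CaP Zn0.8Mn than on CaP Zn, with log2 fold changes of 0.37 for Tmsb4x (SE 0.15), 0.28 for Tmsb10 (SE 0.14), 0.23 for Actg1 (SE 0.13), 0.22 for Actb (SE 0.14), 0.22 for Pfn1 (SE 0.12), 0.15 for Cfl1 (SE 0.15) and 0.01 for Ahnak (SE 0.11). Over all genes in the same fit, 6342 of 13156 were higher. None passed edgeR's test, with adjusted p-values of 0.967 to 0.995, and 2 of 13156 genes were called (0.0152%). The size for Tmsb4x, the largest of the 7, rests on a lone CaP Zn0.8Mn library. Short genes as a whole leaned the same way. Among genes of 1 to 2 kb of exon, the class of both thymosins, CaP Zn0.8Mn replicate 2 had a median log2 difference of 0.07. CaP Zn replicate 1 had -0.10, each against the remaining libraries without CaP Zn0.8Mn replicate 1. The part of length in these values was not tested. For CaP Zn0.8Mn0.1Li over CaP Zn0.8Mn the values shrank to between -0.12 for Tmsb4x and 0.16 for Tmsb10, with an edgeR adjusted p of 1.00 for each, and 2 genes were called (0.0152%). The signs of Tmsb10, Tmsb4x, Pfn1 and Cfl1 against CaP Zn thus turned with the removal of a single library, and Ahnak stood at 0.01 without it, against 2.65 with it.

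Reads shared with copies bear unevenly on the 7. Tmsb10 has 4 tabulated genes that share a run of 50 bases with it, and they took so few counts that Tmsb10 itself held 97.1 to 98.0% of the sum in every library. Cfl1 has 5, and it held 85.4% of the sum in CaP Zn0.8Mn replicate 1 and at least 94.4% in each of the other 5 libraries. Most of the rest in CaP Zn0.8Mn replicate 1 was Gas2l3, which shares 1 such run with Cfl1. Gas2l3 had 2044 counts there against 1126 to 1349 in the others, so the lower Cfl1 share does not measure reads in common. Actb shares such runs with 18 genes, Actg1 and Lrrc58 among them, and held 53.4 and 57.0% of the sum in the CaP Zn0.8Mn0.1Li libraries, 61.4 and 56.5% in those of CaP Zn0.8Mn, and 58.6 and 53.1% in those of CaP Zn. Most of the remainder was counts assigned to Actg1, an expressed gene with 10769 to 12768 counts per library. The Actb shares are therefore not shares of ambiguous reads. The sum over Actb and its sharers was 1829 and 1845 CPM on CaP Zn0.8Mn0.1Li, 2517 and 1946 CPM on CaP Zn0.8Mn, and 1660 and 1717 CPM on CaP Zn. Summed in this way, CaP Zn0.8Mn replicate 1 was still the highest library, but how reads were split between the 2 actins is uncertain.

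Exon length ran along the same axis as the difference of CaP Zn0.8Mn replicate 1. Across the 7300 genes, its log2 difference from the other 5 libraries had a Spearman correlation of 0.506 with exon length, a description across genes of a single library. The other 5 libraries, each against the remaining 4, had values from -0.366 to 0.273. The median difference was -1.41 in 240 genes under 1 kb, -0.88 in 640 genes of 1 to 2 kb, -0.35 in 2018 genes of 2 to 4 kb, 0.06 in 2885 genes of 4 to 8 kb, 0.45 in 1330 genes of 8 to 16 kb and 0.78 in 187 genes of 16 kb or more. Tmsb10, with 1276 exon bases, was the lowest of the 640 genes in its class. Tmsb4x, with 1371, lay near the median of the same class, 269th from the bottom. Ahnak, with 18543, was the highest of the 187 in its class. Pfn1 and Cfl1 were 184th and 442nd from the bottom of the 2018 genes of 2 to 4 kb, and Actb and Actg1, of nearly the same length, were 178th and 366th from the top. Within a length class, then, Actb and Actg1 stood above the class median, Pfn1, Cfl1 and Tmsb4x below it, and Tmsb10 and Ahnak at the ends.

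**Figure D4:**
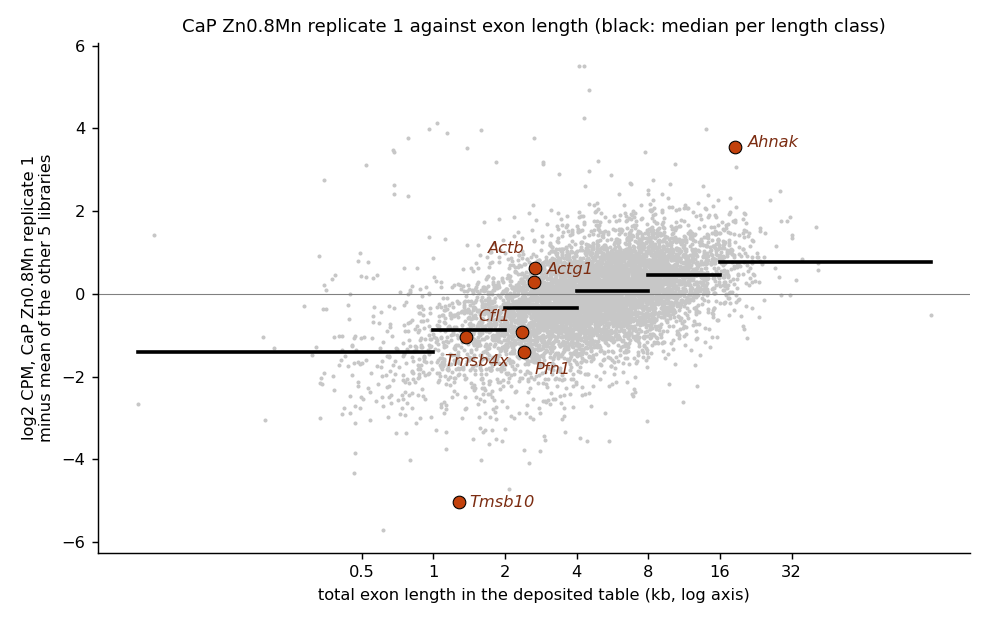
Log2 CPM of CaP Zn0.8Mn replicate 1 minus the mean of the other 5 libraries against total exon length in kb on a log axis, with 1 grey point per gene (7300 genes), black bars for the median of each length class and the 7 genes in orange. The medians run from -1.41 under 1 kb to 0.78 at 16 kb or more, and Tmsb10 at -5.03 and Ahnak at 3.55 lie at the ends of their classes.

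The genes whose profile over the 6 libraries lay nearest to each end were found by the Euclidean distance between centred log2 CPM values, among the 7300. For Tmsb10 they were Cxcl2, a neutrophil-attracting chemokine, at a distance of 0.467, Atp5k, a small subunit of ATP synthase, at 0.844, 2410006H16Rik at 0.957, Gadd45b, a stress-induced gene, at 0.998 and 1500011K16Rik at 1.01. Cxcl2 had 5.15 CPM in CaP Zn0.8Mn replicate 1 against 127 to 174 CPM in the other 5. For Ahnak they were Cd33, a sialic acid receptor of myeloid cells, at 0.148, mt-Nd4 at 0.289, mt-Co3 at 0.362, P2ry6, a nucleotide receptor, at 0.390 and mt-Nd5 at 0.398. The mitochondrial mt-Nd4, with 1378 exon bases, had 3969 CPM in that library against 305 to 400.2 CPM in the others. Tmsb4x was only the 967th nearest gene to Tmsb10.

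The wider actin system was read from 10 lists with 138 genes, of which 122 were tested and 104 had a mean of at least 20 CPM. For CaP Zn0.8Mn0.1Li over CaP Zn, 0 of the 122 were called by edgeR with all 6 libraries or without CaP Zn0.8Mn replicate 1, and 66 had a positive fold change, with a median of 0.0074 on the log2 scale, beside a median of 4.7e-05 over all genes tested. Over all genes tested, 6581 of 13156 had a positive fold change. Without the 7 genes, the lists had 60 of 115 higher, with a median of 0.0050. The list of subunit binding and recycling genes had 7 of 10 higher with a median of 0.11. Those higher include Tmsb10, Tmsb4x, Pfn1 and Cfl1, whose values are given above. Its lowest gene of at least 20 CPM was Twf2 (twinfilin-2, a subunit-binding protein) at -0.10. The list of Ahnak and its annexin partners had 7 of 8 higher with a median of 0.11. The gene that was not higher was Ahnak itself, at -0.05. Of its genes of at least 20 CPM, S100a10, the partner of annexin A2, was the highest at 0.23. The Arp2/3 complex, which branches filaments, had 6 of 10 higher with a median of 0.01.

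In CaP Zn0.8Mn replicate 1, 19 of the 104 genes were over 2-fold higher than the mean of the other 5 libraries (18.3%) and 12 over 2-fold lower (11.5%), beside 9.36% and 15% of all 7300. Tmsb10 was the lowest and Ahnak the highest of the 104. Among the lowest genes of single lists, Myl6, a light chain of non-muscle myosin, had 49.6 CPM there against 247 to 319.8 CPM, Brk1, the smallest WAVE complex subunit, 47.5 against 151 to 166 CPM, Arpc3, an Arp2/3 subunit, 86.1 against 229 to 278 CPM, and S100a6, a calcium-binding protein, 255 against 728 to 867 CPM. S100a10, which is known to bind Ahnak, had 282 CPM against 471 to 609 CPM in the other 5, a log2 difference of -0.97. S100a10, Brk1 and S100a6 have 1212, 1095 and 1367 exon bases. Of all 640 genes of 1 to 2 kb, 43.9% were over 2-fold lower in this library, with a median of -0.88.

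In the same library, of 13 filament crosslinkers and giant linkers, 8 exceeded a 2-fold difference upward and 0 downward, with a median of 1.23 and a median exon length of 13360 bases, beside 4764 over all 7300 genes. Macf1, which ties actin to microtubules, had 1763 CPM there against 453 to 532 CPM, and the scaffold Iqgap1 1363 against 429 to 480.3 CPM. Pls3, a shorter bundling protein, was the lowest of the list with 118 against 121 to 134 CPM. Talin-1 (Tln1), which couples integrins to actin, had 1263 against 476 to 524 CPM. It belongs to the membrane and adhesion linkers, of which 1 of 10 was over 2-fold higher and 0 lower, with a median of -0.13. The lowest of that list was Ezr, with 54.8 against 81.6 to 93.4 CPM. Myo1f, a leukocyte myosin with 4914 exon bases, had 204 against 46.2 to 51.7 CPM. Of the myosins and tropomyosins, 4 of 12 were over 2-fold higher and 2 lower. Gelsolin (Gsn), a severing and capping protein with 3157 exon bases, had 685 against 293 to 342 CPM. In the capping and severing list 1 of 11 was over 2-fold higher and 0 lower, with a median of 0.21. Capg was the lowest there, with 664 against 1035 to 1287 CPM. Of all genes of 4 to 8 kb, 8.98% were over 2-fold higher in this library and 7.80% over 2-fold lower. For genes of 2 to 4 kb these shares were 3.27% and 19.4%. For genes of 8 to 16 kb they were 19.85% and 2.86%, and for genes of 16 kb or more 36.4% and 0.535%. The part of length in the crosslinker values was not tested.

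**Figure D5:**
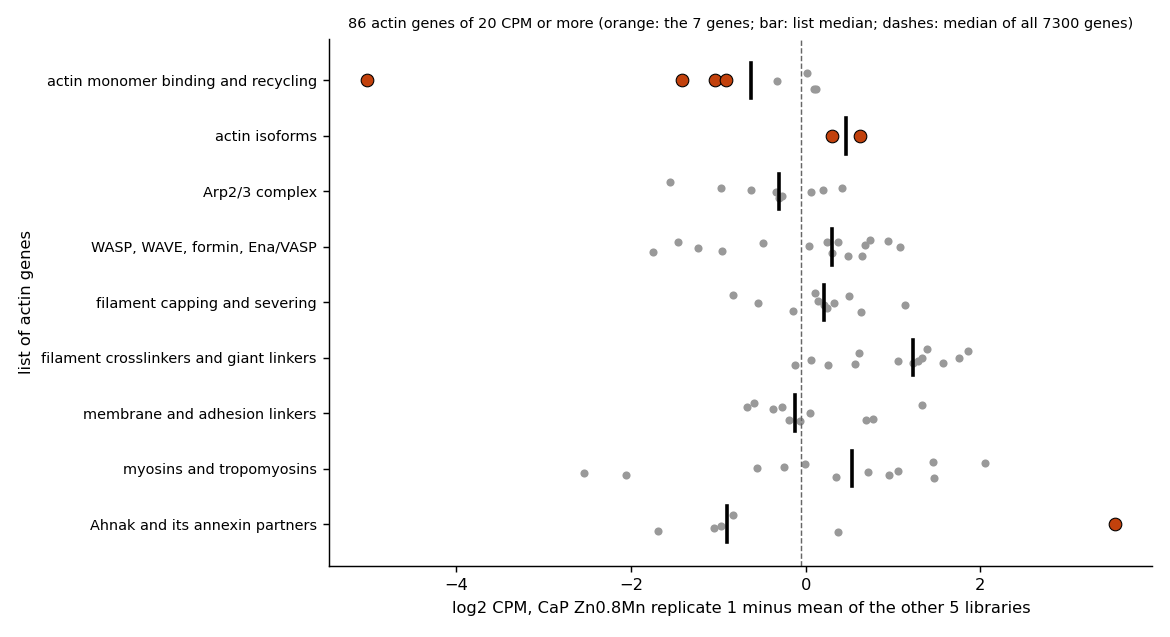
Log2 CPM of CaP Zn0.8Mn replicate 1 minus the mean of the other 5 libraries for 86 actin genes with a mean of at least 20 CPM, in 9 lists, with the 7 genes in orange, a black bar at each list median and a dashed line at the median of all 7300 genes. The crosslinker list has a median of 1.23, and Tmsb10 and Ahnak are the outermost points.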

How the data were processed

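The authors deposited whole-number read counts per gene, with no normalization, and FPKM values, which are these counts divided by the gene's exon length and by a library size of 0.976 to 1.06 times the library total, per the file headers and the values themselves. Which aligner and counter were run is not given here. For the build, mm9 stands in the submitters' processing notes, whereas 53499 of 54409 gene identifiers (98.3%) have the start and end of GENCODE M21, on GRCm38, so coordinates are printed as GRCm38. Ahnak was 1 of the genes whose deposited end differed from that annotation.

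Groups were taken from the treatment label. Counts were tested with edgeR 4.0.16 in R 4.3.3 (TMM, factors 0.973 to 1.05; filterByExpr, 13156 genes; robust quasi-likelihood, two-sided, 3 residual degrees of freedom), with a Benjamini-Hochberg adjusted p under 0.05 over all genes tested. DESeq2 1.42.0 and limma 3.58.1 were alternatives. An exact permutation test of 2 libraries against 2 cannot go below p = 0.333 and was not used. The edgeR step was tested on simulated counts. A floor of 3 counts equals 0.169 to 0.201 CPM and covers counting error only. Log2 CPM differences used a pseudocount of 0.5 CPM. All 7 genes passed the filter on low counts.

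The genes, the lists and the alternatives were chosen with earlier results of these data known. Besides the 7 genes, the text names, in each list, genes of at least 20 CPM at either end of the CaP Zn0.8Mn0.1Li over CaP Zn fold change or of the CaP Zn0.8Mn replicate 1 difference, and the 5 nearest genes to Tmsb10 and to Ahnak. Of the 10 lists, 1 is counted in the totals but not reported here on its own. The collagens and other defining markers come from the marker lists.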

Additional observations from a re-analysis of the deposited data

How the results depend on the processing

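The fold changes of the 7 genes for CaP Zn0.8Mn0.1Li over CaP Zn kept their sign in all 126 recomputations (18 settings per gene), with a lowest adjusted p of 0.596, and 0 genes were called under each setting run. All 126 reuse the same libraries, and for every gene but Ahnak the CaP Zn0.8Mn0.1Li and CaP Zn libraries did not overlap. Such a sign could hardly turn, so its keeping is a description and no support. The counts of called genes for the CaP Zn0.8Mn comparisons did change. For CaP Zn0.8Mn over CaP Zn, DESeq2 called 1 gene and the fit without a filter on low counts 1, against 0, and leaving out single libraries gave 0 to 7808 genes, 0 to 7 of the 7 genes and 0 to 90 list genes. For CaP Zn0.8Mn0.1Li over CaP Zn0.8Mn, DESeq2 called 3 genes and the unfiltered fit 1, against 0, and leaving out single libraries gave 0 to 8096 genes, 0 to 6 of the 7 and 0 to 91 list genes. The upper ends came without CaP Zn0.8Mn replicate 2, where the group is only the library that chose the genes and the spread comes from the other 2 groups. In that setting Tmsb10 was -4.91 and Ahnak 3.52 against CaP Zn, while Tmsb4x turned to 0.04 without CaP Zn replicate 2. The Spearman correlation with exon length was 0.556 among genes of at least 100 CPM, where 2154 genes remain. Differences between replicates 1 and 2 correlated at -0.0939, -0.153 and 0.254 for the 3 pairs of groups, the last being CaP Zn0.8Mn and CaP Zn. With 2 libraries per group, an effect shared by replicate number cannot be told from library spread. A replicate block called 0 genes in each comparison, with Tmsb10 at 0.56 for CaP Zn0.8Mn0.1Li over CaP Zn. The spread of CaP Zn0.8Mn replicate 1 limits the fits over 6 libraries, as the SE of Tmsb10 was 1.31 with it and 0.12 without. Depth limits these genes less, since each had at least 3031 counts outside the single low Tmsb10 value.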
